A study of Mus musculus with 32 samples.

Results

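The 10 genes of MHC class I antigen presentation described here were followed through 8 fractions of mouse bone marrow at 2 ages. The members were the rows of the raw gene count table named B2m, H2-K1, H2-D1, H2-Q7, H2-T22, H2-T23, H2-M3, Tap1, Tap2 and Tapbp, 10 of the 24421 genes in the table. All 10 passed the filter on low counts, which 14154 genes passed. The sorted fractions came from female C57BL/6 mice with no treatment, transgene or deletion in any group. Young mice were 10 weeks old and Aged mice 20 months old. By the labels, hematopoietic stem cells (HSCs) were taken from Lin- cells positive for Sca-1 and c-kit as those that were CD150+ but CD34-, CD48- and Flt3-. The multipotent progenitors (MPPs) were CD34+ cells of the same Lin- Sca-1+ c-kit+ compartment: MPP1 was CD150+, CD48- and Flt3-, MPP2 was CD150+, CD48+ and Flt3-, MPP3 was CD150-, CD48+ and Flt3-, and MPP4 was CD150-, CD48+ and Flt3+. Granulocyte-macrophage progenitors (GMPs) were Sca-1-, c-kit+, FcgR+ and CD34+, megakaryocyte-erythrocyte progenitors (MEPs) were Sca-1-, c-kit+, FcgR- and CD34-, and common lymphoid progenitors (CLPs) were Lin- and IL-7+ with low Sca-1 and low c-kit. Each of the 16 groups had 2 libraries, 32 in all. Whether the duplicates came from separate mice is not settled, because the methods describe both a pool of marrow per age and biological duplicates. Errors and p-values here measure the spread between these libraries, which may be technical.

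MHC class I molecules carry short peptides from the inside of a cell to its surface, where CD8 T cells and natural killer cells read them. A heavy chain (H2-K1, H2-D1 and their relatives) pairs with the light chain beta-2 microglobulin (B2m) in the endoplasmic reticulum. The transporter made of Tap1 and Tap2 moves peptides cut by the proteasome into that compartment, and tapasin (Tapbp) holds the empty heavy chain at the transporter until a peptide fits. H2-K1 and H2-D1 are the classical, highly polymorphic heavy chains. H2-Q7, H2-T22, H2-T23 and H2-M3 are non-classical: H2-T23 encodes Qa-1, which shows leader peptides of other class I chains to the NKG2A receptor, H2-M3 presents peptides that start with formylmethionine, and H2-T22 is bound by some gamma-delta T cells. Interferons raise most of these genes through factors that include IRF1 and the class I transactivator NLRC5.

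Total counts ran from 11237384 to 17723245 per library. Levels are given as CPM, the counts scaled to a common library size after correction by the trimmed mean of M-values, and 1 CPM was worth more than 3 counts in every library (3 counts were 0.186 to 0.281 CPM). The RNA matched the sorted surface markers in part: the mean level of Slamf1 (CD150) was 53.9 CPM in young HSCs, Fcgr3 was highest in GMPs (481 CPM in the young), Il7r was highest in CLPs (158 CPM in the young) and Flt3 was highest in MPP4 (1063 CPM in the young). Ly6a (Sca-1) stood at 294 CPM in young HSCs, 11.8 in young GMPs, 0.256 in young MEPs and 35.2 in young CLPs, but at 214 CPM in aged CLPs. In bulk RNA a smaller share of a cell type and less RNA per cell cannot be told apart. A gene was called when its adjusted p from edgeR's quasi-likelihood test (Benjamini-Hochberg over the 14154 genes of each comparison) was under 0.01, and all log2 fold changes below come from that test, each with its standard error (SE).

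B2m lies alone on chromosome 2, from 122147686 to 122153083 on the plus strand of GRCm38 (mm10). The other 9 genes lie within the major histocompatibility complex on chromosome 17. Tapbp starts at 33915899, H2-K1 runs from 33996017 to 34000347 on the minus strand, and Tap1 (34187553 to 34197225) and Tap2 (34203527 to 34216321) follow on the plus strand. H2-D1 spans 35262730 to 35267499 and H2-Q7 spans 35439155 to 35443773, both on the plus strand, and H2-T23 (36029773 to 36032855), H2-T22 (36037128 to 36042747) and H2-M3 (37270220 to 37274484) lie further along. Class I heavy chain genes arose by duplication, so some reads cannot be placed on one of them. Windows of 60 bases, the length of the reads, were taken from the longest protein-coding transcript of each member. Of those of H2-T22, 36.5% were shared with another gene (29.8% with H2-T10), as were 28.8% of H2-Q7 (16.5% with H2-Q6). The share was 21.2% for H2-T23 and 9.74% for H2-D1. H2-K1 shared 3.97%, Tapbp 1.59%, Tap1 0.518% and Tap2 0.443%, and B2m and H2-M3 shared none. No window matched a gene named H2-Q8, H2-Q9, H2-T9 or H2-L, which have rows in the count table. The shares are too low if the annotation searched lacks these relatives. The counts of single H2-Q and H2-T rows are therefore uncertain, and family sums are given beside them.

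The start sites show what the heavy chain genes and the light chain have in common upstream. The 250 bases before the RefSeq transcript start (GRCm38.p6) are printed for 5 members, 5′ to 3′ on the strand of the gene, with 2 kinds of match in capitals: GGGATTCCC, the NF-kB site known from class I promoters, and the interferon-stimulated response element, searched in 2 forms as GAANNGAAA and GAAANNGAA on both strands. H2-K1 is at chr17:34000348-34000597 (minus strand), H2-D1 at chr17:35262844-35263093, H2-Q7 at chr17:35438905-35439154, H2-M3 at chr17:37269984-37270233 and B2m at chr2:122147437-122147686 (all plus strand).
H2-K1: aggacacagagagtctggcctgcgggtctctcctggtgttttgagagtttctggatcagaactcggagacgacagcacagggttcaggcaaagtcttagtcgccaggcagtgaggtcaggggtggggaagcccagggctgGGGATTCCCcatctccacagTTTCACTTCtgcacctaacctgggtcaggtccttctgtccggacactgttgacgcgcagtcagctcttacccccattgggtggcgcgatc
H2-D1: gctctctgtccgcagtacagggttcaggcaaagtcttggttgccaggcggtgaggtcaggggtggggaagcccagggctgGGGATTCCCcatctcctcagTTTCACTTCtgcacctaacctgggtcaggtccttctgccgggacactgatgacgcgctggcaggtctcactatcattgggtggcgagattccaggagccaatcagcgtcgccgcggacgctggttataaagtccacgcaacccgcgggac
H2-Q7: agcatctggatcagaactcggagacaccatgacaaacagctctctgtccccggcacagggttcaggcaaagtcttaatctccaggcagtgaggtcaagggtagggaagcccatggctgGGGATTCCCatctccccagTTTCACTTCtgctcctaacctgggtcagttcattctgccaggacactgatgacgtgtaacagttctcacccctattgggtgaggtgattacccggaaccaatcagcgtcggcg
H2-M3: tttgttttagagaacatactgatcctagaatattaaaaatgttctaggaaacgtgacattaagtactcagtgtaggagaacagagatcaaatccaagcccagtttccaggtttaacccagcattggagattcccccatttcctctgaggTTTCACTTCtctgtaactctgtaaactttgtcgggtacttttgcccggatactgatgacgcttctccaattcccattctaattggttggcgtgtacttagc
B2m: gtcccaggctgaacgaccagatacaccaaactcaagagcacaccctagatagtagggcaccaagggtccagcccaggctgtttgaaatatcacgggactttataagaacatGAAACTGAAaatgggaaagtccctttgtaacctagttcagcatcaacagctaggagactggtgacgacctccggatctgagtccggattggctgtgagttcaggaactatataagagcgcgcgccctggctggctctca
H2-K1, H2-D1 and H2-Q7 each held GGGATTCCC followed by TTTCACTTC, which is GAANNGAAA read on the other strand. H2-M3 held TTTCACTTC without GGGATTCCC, and B2m held GAAACTGAA. Of 32851 promoter windows of this length, 0.301% held GGGATTCCC, 6.31% held GAANNGAAA and 7.13% held GAAANNGAA on either strand, and 12.5% held at least one of the last 2. H2-T23 and H2-T22 also held GAAANNGAA. The windows of Tap1 and Tapbp held none of these letters, Tap2 is not in the table used here, and RefSeq gives H2-K1 a second start close by. The CCAAT box, searched on both strands as CCAAT or ATTGG, stood in the windows of all 9 members that could be matched, against 33.8% of all windows. TGACGC, a core of the cyclic AMP response element, stood in those of H2-K1, H2-D1 and H2-M3, against 6.12% of all windows. A match of letters is a description of the sequence and not evidence that a factor binds there.

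In young marrow the mean level was highest in HSCs for 5 members and in CLPs for 3, and lowest in MEPs for 9. The exceptions were Tap2, highest in MPP4, and H2-Q7, highest in MPP1 and lowest in GMPs. Per kilobase of exon, the level in young HSCs was 4066 CPM per kb for B2m, 1124 for H2-D1 and 1085 for H2-K1. Next came H2-T23 at 187 CPM per kb, Tapbp at 177, Tap2 at 70.7, H2-Q7 at 62.4, Tap1 at 57.9, H2-M3 at 38.1 and H2-T22 at 20.4. The light chain and the 2 classical heavy chains thus stood far above the transporter. The level of 9 of 10 members differed among the 8 young fractions, where 86.9% of all genes tested did so, so differing between these fractions was the rule and not particular to the members. H2-T22 missed the threshold (adjusted p = 0.0135, edgeR).

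**Figure D1:**
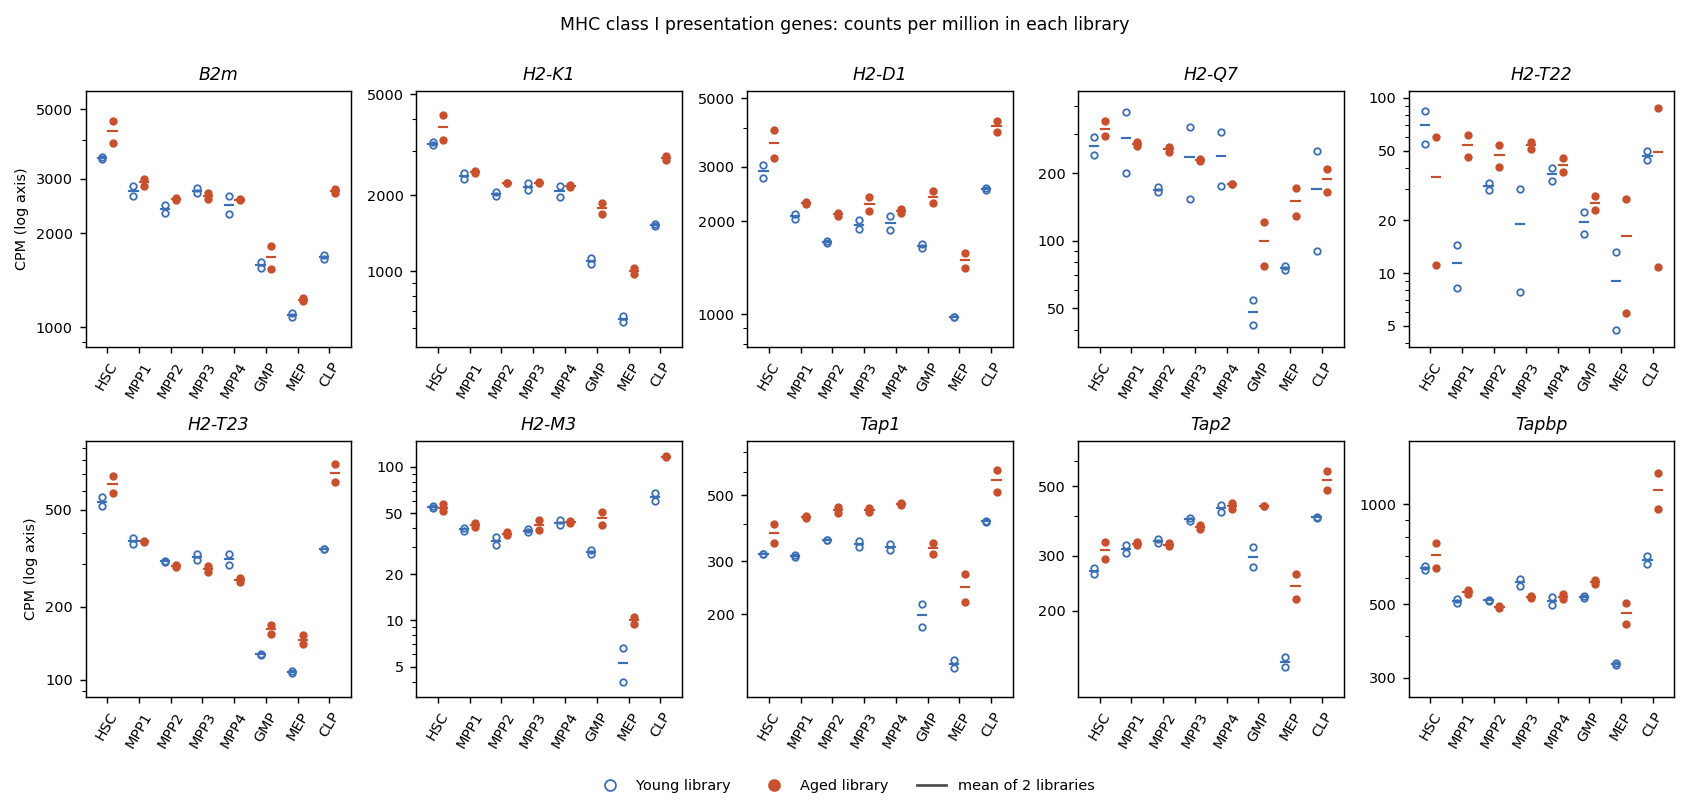
Level of each of the 10 members (CPM, log axis) in every library, with fractions along the x axis, young and aged libraries as separate points and short lines at the mean of the 2. The 2 duplicates of a group lie close together for all members but H2-Q7 and H2-T22, and MEPs hold the lowest values for most members.

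Young HSCs carried more class I RNA than young MPPs. Against the mean of MPP1 to MPP4, 6 members were higher in young HSCs (19.2% of all genes were called higher) and 1 was lower (18.9% of all genes), with a median log2 difference of 0.48 over the members and 0.02 over all genes. Among the members called, H2-T23 differed most, at 518 and 564 CPM in the 2 young HSC libraries against 296 to 382 CPM in the 8 young MPP libraries (log2 difference 0.73, SE 0.061). All 8 MPP libraries lay under both HSC libraries. H2-D1 (0.59), H2-K1 (0.56), H2-M3 (0.51), B2m (0.44) and Tapbp (0.28) were higher too, and the call for Tapbp was lost without young HSC replicate 1 (0.27) and with GC content and length corrected for (0.08, adjusted p = 0.325, edgeR). Tap2, the partner of Tap1, went the other way, at 274 and 261 CPM in HSCs against 306 to 436 CPM in the MPPs (−0.44, SE 0.068). H2-T22 had a larger difference that missed the threshold (1.64, SE 0.52, adjusted p = 0.0124, edgeR), and Tap1 did not pass the test either (−0.08, adjusted p = 0.379, edgeR).

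Young GMPs and MEPs carried less of most members in the counts as deposited, and the size of the difference depended on correction for GC content and length. In young MEPs, 9 members were lower than in the MPPs, against 39.5% of all genes, and none was higher, against 31.3% of all genes. The median over the members was −1.37, and that over all genes −0.29. H2-M3 was almost gone there, at 3.97 and 6.60 CPM against 30.9 to 44.9 CPM in the MPPs (−2.87, SE 0.14). H2-K1 stood at 629.8 and 665 CPM in young MEPs against 1965 to 2457 CPM in the young MPPs (−1.74, SE 0.067), and H2-D1 at 981 and 982 CPM (−0.97, SE 0.069). The H2-K1 and H2-D1 ranges did not overlap those of the MPPs. In young GMPs, 8 members were lower, against 32.7% of all genes, and none was higher, against 32.1%, with medians of −0.58 and −0.10. There the fall in H2-T23 (128 and 127 CPM, −1.36, SE 0.071) was larger than that in H2-K1 (1127 and 1066 CPM, −0.98, SE 0.064) by value, and that in H2-D1 was small (1683 and 1638 CPM, −0.21, SE 0.066). When the GC content and length of genes were corrected for in each library, 5 members were called lower in young GMPs (B2m, H2-K1, H2-Q7, H2-T23 and H2-M3) and 3 higher. Those 3 were H2-D1 (−0.21 to 0.20), Tap2 (−0.29 to 0.36) and Tapbp (−0.01 to 0.64), and Tap1 lost its call (−0.76 to −0.02, adjusted p = 0.86, edgeR). In young MEPs Tapbp turned from lower to higher (−0.68 to 0.23), and H2-D1 (−0.97 to −0.24), Tap1 (−1.30 to −0.31), Tap2 (−1.40 to −0.49) and H2-K1 (−1.74 to −1.07) stayed lower by less. H2-D1 in young GMPs also lost its call without young MPP1 replicate 2, young MPP2 replicate 2 or young GMP replicate 2 (−0.23 to −0.21), as Tap2 did without young GMP replicate 1 (−0.24).

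Young CLPs held a different mixture. Of the members, 4 were higher than in the MPPs (28.2% of all genes were called higher), and 2 were lower (25.2% of all genes), with a median of 0.20. H2-M3 was higher at 59.9 and 67.6 CPM (0.73, SE 0.096), H2-D1 at 2559 and 2529 CPM (0.40, SE 0.063), Tapbp at 659 and 701 CPM (0.36, SE 0.069) and Tap1 at 407 and 410.2 CPM (0.28, SE 0.073). B2m at 1659 and 1703 CPM (−0.62, SE 0.062) and H2-K1 at 1514 and 1543 CPM (−0.50, SE 0.062) were lower. One heavy chain was thus above the MPPs and another below them in the same libraries, and the ratio of H2-K1 to H2-D1 counts was 0.592 and 0.610 in young CLPs against 1.05 to 1.19 in young MPPs. The call for Tap1 was lost without young MPP3 replicate 1 or either young CLP library (0.23 to 0.24), and that for Tapbp without young CLP replicate 2 (0.28).

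With age, class I genes rose in GMPs, MEPs and CLPs, while in HSCs and MPPs few or none passed the test. Aged libraries were called higher for 6 of 10 members in GMPs, 7 in MEPs and 8 in CLPs, and no member was called lower in these fractions. Of all genes, 9.93% were called higher and 8.97% lower in GMPs, the shares being 9.08% and 11.7% for MEPs and 5.71% and 4.73% for CLPs. The 10 members had a median log2 fold change of 0.53 for GMPs, 0.72 for MEPs and 0.69 for CLPs, where the median of all genes was 0. In HSCs no member was called in either direction, against 3.74% of all genes called higher and 1.66% lower, although 6 members had an unadjusted p under 0.05, all higher in the aged. DESeq2 called 2 of these, B2m and H2-D1. Tap1 was the only member called in MPP1, MPP3 and MPP4, each time higher in the aged (4.71%, 8.14% and 10.31% of all genes were called higher there and 2.09%, 5.79% and 6.27% lower). In MPP2 no member was called (4.49% of all genes higher, 3.31% lower), 2 had an unadjusted p under 0.05, and DESeq2 called 2 higher, H2-D1 and Tap1. The medians over the members were 0.23 for HSCs and 0.09, 0.15, 0.0038 and 0.05 for MPP1 to MPP4.

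**Figure D2:**
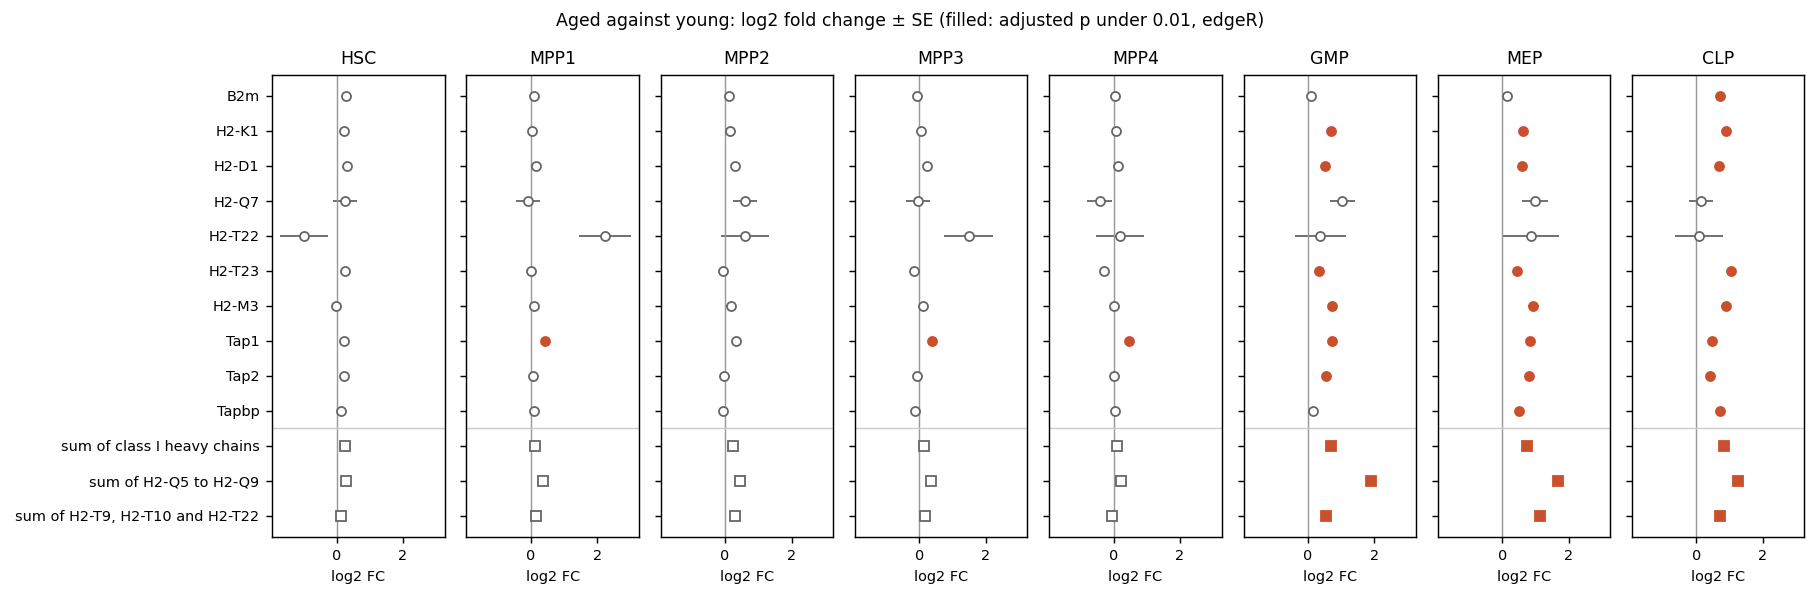
Log2 fold change of aged over young libraries for the 10 members and 3 family sums in the 8 fractions, with the standard error as bars and filled symbols where the adjusted p was under 0.01. Members in GMP, MEP and CLP lie above 0, from 0.07 to 1.04, and those in HSC and MPP1 to MPP4 lie mostly near 0 with the wide bars of H2-Q7 and H2-T22.

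The light chain rose with age in 1 of the 3 fractions. B2m stood at 1659 and 1703 CPM in young CLPs and at 2775 and 2698 CPM in aged CLPs (0.70, SE 0.075, adjusted p = 9.74e-07, edgeR). Both aged CLP libraries lay well above both young ones. In GMPs the young libraries had 1623 and 1553 CPM and the aged ones 1533 and 1818 CPM (0.08, SE 0.075), and the groups overlapped. In MEPs B2m went from 1083 and 1114 CPM to 1240.4 and 1214 CPM (0.16, SE 0.075, adjusted p = 0.108, edgeR), with no overlap but short of the threshold. B2m has the lowest GC content of the members (41.2% against 50.6% to 57.1%), and with GC content and length corrected for it was called higher in aged GMPs (0.43, adjusted p = 0.00018, edgeR) and aged MEPs (0.51, adjusted p = 1.75e-05, edgeR) too.

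The 2 classical heavy chains rose in all 3 fractions. H2-K1 went from 1127 and 1066 CPM in young to 1679 and 1867 CPM in aged GMPs (0.69, SE 0.076), from 629.8 and 665 to 976 and 1033 CPM in MEPs (0.63, SE 0.076), and from 1514 and 1543 to 2863 and 2747 CPM in CLPs (0.88, SE 0.076). Every aged library exceeded both young libraries of its fraction. H2-D1 went from 1683 and 1638 to 2292 and 2496 CPM in GMPs (0.53, SE 0.082), from 981 and 982 to 1408 and 1578 CPM in MEPs (0.61, SE 0.082), and from 2559 and 2529 to 4229 and 3881 CPM in CLPs (0.67, SE 0.082). These groups did not overlap either, and the largest adjusted p of these 6 values was 5.69e-05 (edgeR). In HSCs the aged libraries of H2-K1 were at 3306 and 4136 CPM and the young at 3143 and 3232 CPM (0.22, adjusted p = 0.0593, edgeR), and those of H2-D1 were at 3193 and 3958 CPM against 2754 and 3041 CPM (0.30, adjusted p = 0.0186, edgeR). Aged HSC replicate 2 was well above aged HSC replicate 1 for both. Without aged HSC replicate 1, H2-K1 (0.34), H2-D1 (0.41) and B2m (0.35) were called higher in aged HSCs and the count of members rose from 0 to 3, and without aged HSC replicate 2 the values were 0.04, 0.13 and 0.15. In the MPPs neither heavy chain was called: H2-K1 lay between 0.04 and 0.14 and H2-D1 between 0.13 and 0.30. With GC content and length corrected for, H2-D1 was called in MPP2, MPP3 and MPP4 (0.41, 0.40 and 0.24) and H2-K1 in MPP2 and MPP3 (0.27 and 0.22).

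Among the non-classical heavy chains, H2-T23 (Qa-1) had the largest rise of any called member, in CLPs. It went from 345 and 345 CPM to 769.9 and 651 CPM there (1.04, SE 0.081, adjusted p = 1.33e-08, edgeR). In GMPs it went from 128 and 127 to 155 and 168 CPM (0.34, SE 0.082) and in MEPs from 106 and 109 to 140.3 and 152 CPM (0.44, SE 0.083). The aged libraries were above the young ones in all 3 fractions, but the GMP call was lost without young GMP replicate 1, young GMP replicate 2 or aged GMP replicate 2 (0.28 to 0.34), and with GC content and length corrected for, and the MEP call was lost without aged MEP replicate 2 (0.34). In MPP4 the aged libraries of H2-T23 were both lower, at 263 and 252 CPM against 296 and 330.4 CPM (−0.28, adjusted p = 0.0132, edgeR), short of the threshold in edgeR and past it in DESeq2 (−0.33).

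H2-M3, which shares no read-length window with another gene, rose in the same 3 fractions. The values went from 28.9 and 27.3 to 41.9 and 50.7 CPM in GMPs (0.72, SE 0.13), from 3.97 and 6.60 to 9.46 and 10.58 CPM in MEPs (0.94, SE 0.17), and from 59.9 and 67.6 to 119 and 115 CPM in CLPs (0.88, SE 0.12). No aged library overlapped the young range. Aged MEPs still had less H2-M3 than any other group but young MEPs. The MEP call was lost without young MEP replicate 1 (0.57).

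H2-Q7 and H2-T22 were not called in any fraction, and their duplicates disagreed. In young CLPs the 2 libraries had 252 and 90.1 CPM of H2-Q7, a ratio of 2.79, and in aged CLPs they had 88.0 and 10.8 CPM of H2-T22, a ratio of 8.17. For the other 8 members the larger duplicate was at most 1.66 times the smaller in any group. H2-Q7 held 15.2% to 52.6% of the summed counts of H2-Q5 to H2-Q9 across libraries, and H2-T22 held 6.67% to 63.5% of those of H2-T9, H2-T10 and H2-T22. The sums themselves differed between duplicates by at most 1.33 and 1.51 times. The single rows thus varied more between duplicates than the sums did. The sums are not free of shared reads, since windows of H2-Q7 also matched H2-D1 (6.76%) and those of H2-T22 also matched Gm11127 (5.29%) and H2-T23 (4.23%).

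**Figure D3:**
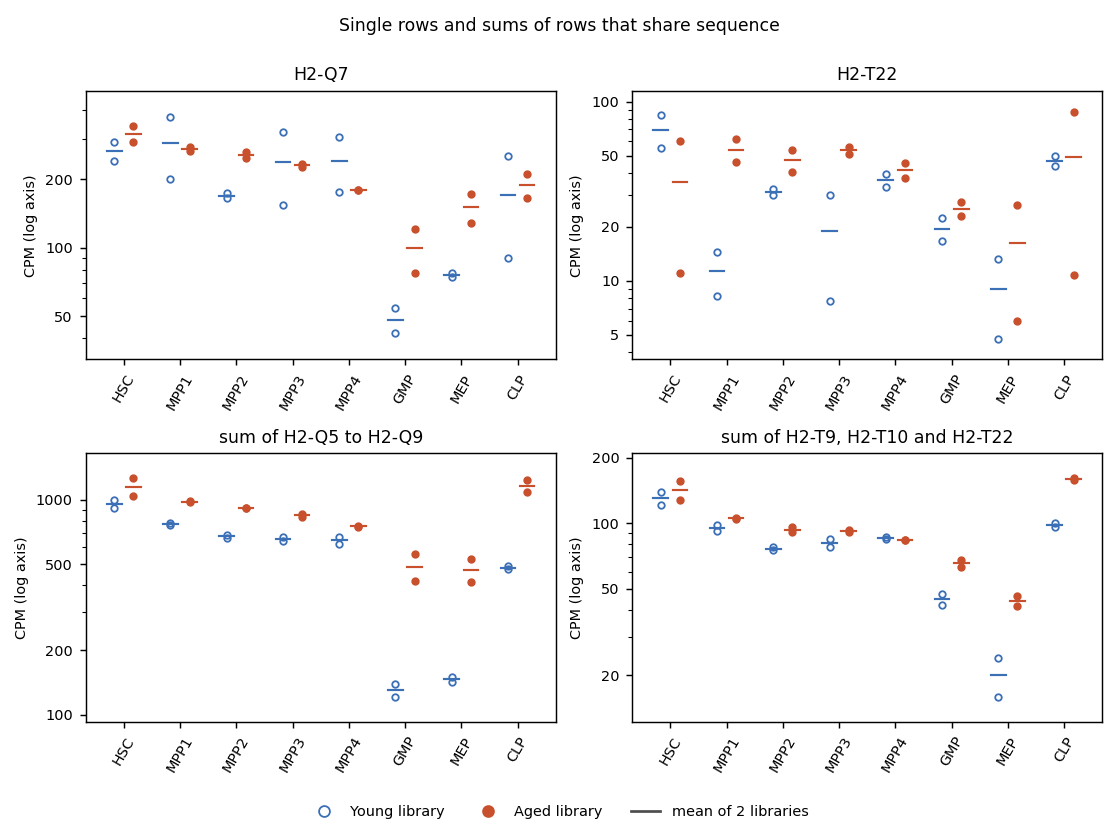
Levels in CPM (log axis) of H2-Q7 beside the sum of H2-Q5 to H2-Q9, and of H2-T22 beside the sum of H2-T9, H2-T10 and H2-T22, in every library by fraction and age, with short lines at group means. The points of the single rows scatter within groups, by up to 8.17 times, and those of the sums lie close together.

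As a sum, the H2-Q rows rose more with age than H2-K1 or H2-D1 did by value. H2-Q5 to H2-Q9 together went from 121 and 139 to 419 and 557 CPM in GMPs (1.91, SE 0.12), from 143 and 150 to 415 and 532 CPM in MEPs (1.69, SE 0.12) and from 478 and 489.6 to 1087 and 1230 CPM in CLPs (1.26, SE 0.12). In each fraction both aged libraries lay far above both young ones. In HSCs and MPPs the sum was not called (0.22 to 0.44, with the lowest adjusted p in MPP2 at 0.0114, edgeR). H2-T9, H2-T10 and H2-T22 together rose by 0.55 (SE 0.12) in GMPs, from 42.2 and 47.3 to 63.1 and 68.0 CPM. In MEPs this sum went from 15.9 and 24.05 to 41.8 and 46.5 CPM (1.15, SE 0.13) and in CLPs from 96.4 and 100.2 to 159 and 161 CPM (0.70, SE 0.12). Both sums were added after the single rows had been seen. In young marrow the H2-Q sum was lower than in the MPPs by more than any classical chain, at −2.40 in GMPs and −2.23 in MEPs. Adding H2-L to H2-D1 changed no call, as H2-D1 held at least 99.1% of their sum.

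All 35 heavy chain rows summed gave the total of class I heavy chain RNA. H2-K1 made up 29.2% to 40.9% of that sum, H2-D1 34.5% to 53.1% and H2-T23 3.17% to 8.15%. The sum went from 3167 and 3085 to 4742 and 5287 CPM in GMPs (0.68, SE 0.074), from 1919.7 and 1976 to 3068 and 3434 CPM in MEPs (0.74, SE 0.074), and from 5177 and 5202 to 9449 and 9009 CPM in CLPs (0.83, SE 0.074). All 3 were called, with no overlap. In HSCs the sum went from 7727 and 8239 to 8603 and 10578 CPM (0.26, adjusted p = 0.0216, edgeR), and it was called without aged HSC replicate 1 (0.37, adjusted p = 0.0011, edgeR). In MPP1 to MPP4 it changed by 0.09 to 0.23 and was not called. The aged CLP libraries lay within the range of the HSC libraries, and the aged MEP libraries near the young GMP libraries.

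The peptide transporter rose with the heavy chains. Tap1 was the member called in most fractions, 6 of 8. It went from 216 and 181 to 318 and 346 CPM in GMPs (0.74, SE 0.096), from 132 and 141 to 219 and 272 CPM in MEPs (0.85, SE 0.096) and from 407 and 410.2 to 512 and 609 CPM in CLPs (0.46, SE 0.095). The aged libraries were above the young ones in each. In MPP1 Tap1 went from 315 and 311 to 419 and 425 CPM (0.43, SE 0.095), in MPP3 from 335 and 351 to 454 and 438 CPM (0.38, SE 0.095) and in MPP4 from 329 and 344 to 471 and 462 CPM (0.47, SE 0.095). MPP2 had a rise of like size, from 355 and 354 to 458 and 436 CPM, that missed the threshold (0.33, adjusted p = 0.019, edgeR), and HSCs went from 317 and 318 to 345 and 400.2 CPM (0.23, adjusted p = 0.128, edgeR). In all 5 of these fractions both aged libraries exceeded both young ones. The MPP calls were near the threshold: those in MPP1 (0.42 to 0.47) and MPP3 (0.38 to 0.45) were lost whichever single library was left out, that in MPP4 without young MPP4 replicate 1 (0.44), and that in CLPs without young CLP replicate 1, young CLP replicate 2 or aged CLP replicate 2 (0.31 to 0.46).

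Tap2, the other subunit of the transporter, was called higher in aged GMPs, MEPs and CLPs. It went from 276 and 319 to 431 and 432 CPM in GMPs (0.53, SE 0.083), from 133 and 142 to 219 and 261 CPM in MEPs (0.80, SE 0.084) and from 394 and 399 to 486 and 558 CPM in CLPs (0.40, SE 0.083). The aged libraries lay above the young ones in each, and the CLP call was lost without young CLP replicate 1, young CLP replicate 2 or aged CLP replicate 2 (0.28 to 0.40). In HSCs both aged libraries (293 and 330.3 CPM) were above both young ones (274 and 261 CPM), short of the threshold (0.22, adjusted p = 0.0965, edgeR). In MPP1 to MPP4 the log2 fold change of Tap2 lay between −0.09 and 0.05, where that of Tap1 lay between 0.33 and 0.47. The difference between the 2 genes within a fraction was not tested. Tapbp rose in MEPs, from 329 and 332 to 436 and 505 CPM (0.51, SE 0.089), and in CLPs, from 659 and 701 to 1244 and 965 CPM (0.70, SE 0.089). In GMPs it went from 523 and 529 to 593 and 577 CPM (0.15, adjusted p = 0.209, edgeR), without overlap but short of the threshold. The MEP call for Tapbp was lost without aged MEP replicate 2 (0.36).

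The age effect itself differed among the 8 fractions for 8 of 10 members, against 34.9% of all genes. The exceptions were H2-Q7 and H2-T22. Against the mean age effect of MPP1 to MPP4, that of GMPs was larger for 5 members (12.7% of all genes were called higher and 13.8% lower), H2-K1 (0.62, SE 0.084), H2-D1 (0.33), H2-T23 (0.47), H2-M3 (0.62) and Tap2 (0.55). That of MEPs was larger for 7 members (10.16% and 14.7% of all genes), with Tap1 (0.44) and Tapbp (0.53) added to the GMP set and the largest difference in H2-M3 (0.84) and Tap2 (0.82). That of CLPs was larger for 7 members (10.32% and 12.3% of all genes), among them B2m (0.65, SE 0.084), H2-K1 (0.80, SE 0.084) and H2-T23 (1.17, SE 0.091), but not Tap1 (0.05). No member was called as having a smaller age effect in these fractions than in the MPPs, although H2-T22 lay below 0 in all 3 (−0.75 in GMPs, −0.26 in MEPs and −1.05 in CLPs, none past the test). These comparisons share the MPP libraries, so they are not independent of each other. For HSCs no member was called (1.91% and 1.10% of all genes), with an unadjusted p under 0.05 for 3 in the higher and 1 in the lower direction and 1 call by DESeq2, H2-T23 (higher). Without young GMP replicate 2 or aged GMP replicate 2 the GMP count fell to 3, without young MEP replicate 1 the MEP count fell to 4, without aged MEP replicate 2 it fell to 3, and without aged HSC replicate 1 the HSC count rose to 1. Among single members in GMPs, the call of H2-D1 was lost without either young GMP library, aged GMP replicate 2, young MPP1 replicate 2 or young MPP2 replicate 2 (0.25 to 0.37), and that of H2-M3 without young or aged GMP replicate 2 (0.47 to 0.60). In MEPs, the calls of H2-D1 (0.26 to 0.36) and Tap1 (0.22 to 0.42) were lost without either young MEP library or aged MEP replicate 2, that of H2-M3 without young MEP replicate 1 or aged MEP replicate 2 (0.46 to 0.69) and that of Tapbp without aged MEP replicate 2 (0.36). In CLPs, the call of Tap2 was lost without either young CLP library or aged CLP replicate 2 (0.27 to 0.39). With GC content and length corrected for, the calls of H2-D1 (0.08), H2-T23 (0.24) and Tap2 (0.17) in GMPs, Tap1 (0.24) in MEPs and Tap2 (0.22) in CLPs were lost, B2m was called in GMPs (0.45) and MEPs (0.53), and Tap1 was called lower in HSCs (−0.36).

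The ratio of heavy chain to light chain counts was higher in aged than in young GMPs and MEPs. The ratio of summed heavy chain counts to B2m counts was 1.95 and 1.99 in young GMPs and 3.09 and 2.91 in aged GMPs. In MEPs it was 1.77 in both young libraries and 2.47 and 2.83 in the aged, and in CLPs it was 3.12 and 3.06 in the young and 3.41 and 3.34 in the aged. In HSCs and MPPs both ages lay between 1.86 and 2.36. The ratio of H2-K1 to H2-D1 counts divided the fractions at both ages, with 0.933 to 1.19 in HSCs and MPPs and 0.592 to 0.748 in GMPs, MEPs and CLPs. Ratios of counts compare libraries and not molecules, since the genes differ in length, and no test was run on them. The GC and length correction that raised B2m in aged GMPs and MEPs acts on the first ratio directly.

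**Figure D4:**
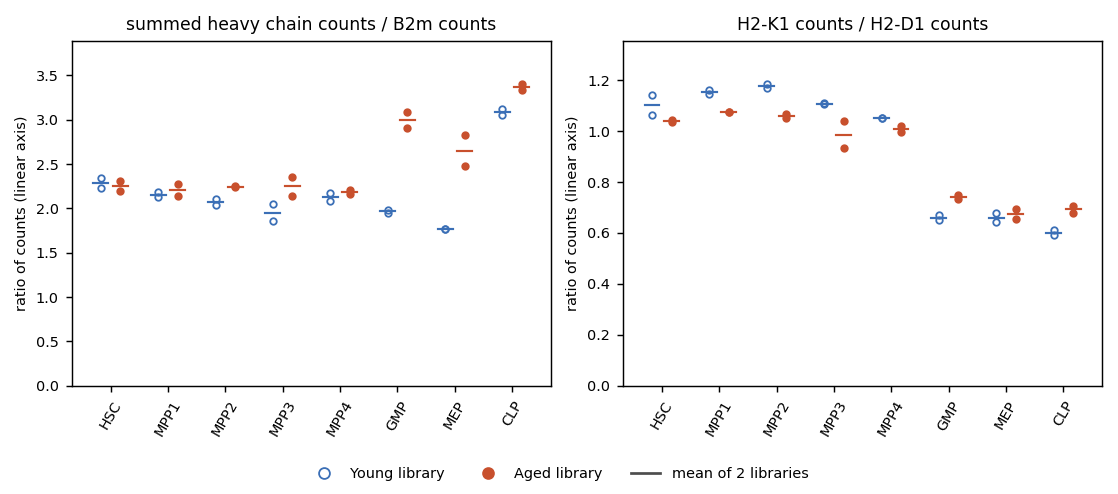
Ratio of summed heavy chain counts to B2m counts, and of H2-K1 to H2-D1 counts, in each library by fraction and age (linear axes, with short lines at group means). Aged GMP and MEP libraries reach heavy chain ratios of 2.47 to 3.09 against 1.77 to 1.99 in the young, and the second ratio stays at or under 0.748 in GMPs, MEPs and CLPs.

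The members moved together across groups to an unequal degree. The correlation of each member's 16 group means with the mean profile of all 10 was 0.942 for H2-K1, 0.936 for H2-M3 and 0.924 for H2-D1, and 0.704 for H2-T22 and 0.725 for H2-Q7, the 2 with uncertain rows. These group means share libraries and scaling, and each member is part of the mean profile. By Pearson's r over the 16 group means, the 5 genes outside the lists most like that profile were Trappc5 (0.967), Nudt16 (0.958), Vrk3 (0.952), Nfkb2 (0.942) and Nt5m (0.94).

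Other class I heavy chain rows, none of them members, were called higher mainly in GMPs, MEPs and CLPs. Of 34 listed, 33 were in the table and 17 could be tested. The number called higher was 6 for GMPs, 6 for MEPs and 5 for CLPs, against 1 for HSCs, 1 for MPP1 and 0 for MPP2 to MPP4. The number called lower was 1 for GMPs, CLPs and MPP1, 2 for MPP2, 3 for MPP3 and MPP4 and 0 for MEPs and HSCs. Chosen after their values were seen, Cd1d1, Mr1 and Hfe held all of these lower calls together with Fcgrt. These genes are listed here but lie outside the heavy chain sum, and no row of that sum was called lower. Of all genes, 9.93% were called higher in GMPs, 9.08% in MEPs, 5.71% in CLPs, 3.74% in HSCs and 4.71% in MPP1. The shares called lower were 8.97% in GMPs, 4.73% in CLPs and 2.09%, 3.31%, 5.79% and 6.27% in MPP1 to MPP4. The median log2 fold change of the 17 was 0.43 for GMPs, 0.74 for MEPs and 0.85 for CLPs, and between 0 and 0.14 elsewhere, where the median of all genes lay between −0.04 and 0.02. H2-Q5 rose by 1.28 (GMPs), 1.49 (MEPs) and 0.98 (CLPs), and H2-Q6 by 1.76, 1.62 and 1.16. Chosen after their values were seen, H2-Q4 (1.35, 1.22 and 0.92) and H2-T24 (0.88, 0.74 and 0.88) were called in the same 3 fractions. Fcgrt, which encodes the neonatal Fc receptor and not a peptide-presenting chain, fell in MPP1 to MPP4 and GMPs, from −1.18 in MPP4 to −0.66 in MPP1, and rose in CLPs (0.94). Its calls in MPP1 and GMPs were lost whichever single library was left out (−0.79 to −0.55), and that in CLPs without aged CLP replicate 1 (0.73). The one call in HSCs was Gm8909, chosen for its counts, at 719 and 974 in the aged libraries against 2 and 0 in the young, a row that shares sequence with other class I genes.

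Among the regulators of class I transcription, Nlrc5 and Irf1 rose in GMPs, MEPs and CLPs. Chosen after its values were seen, Nlrc5, which binds class I promoters and switches them on, went from 8.34 and 7.12 to 32.3 and 30.7 CPM in GMPs (2.03, SE 0.16), from 4.93 and 6.68 to 23.9 and 28.1 CPM in MEPs (2.17, SE 0.17) and from 57.3 and 49.8 to 80.9 and 99.2 CPM in CLPs (0.75, SE 0.14). Young GMPs and MEPs had far less Nlrc5 than the young HSCs and MPPs, which held 51.7 to 72.2 CPM. The CLP call was lost without young CLP replicate 2 or aged CLP replicate 2 (0.58 to 0.65). Irf1, the interferon-induced activator, went from 64.5 and 65.2 to 108 and 122 CPM in GMPs (0.83, SE 0.11), from 12.5 and 15.3 to 30.7 and 38.3 CPM in MEPs (1.31, SE 0.12) and from 162 and 159 to 319.7 and 305 CPM in CLPs (0.96, SE 0.10). In MPP4 it went down, from 260.2 and 225 to 139.5 and 148 CPM (−0.76, SE 0.10), with no overlap. Irf8, a factor of myeloid and dendritic development, fell in MPP3 (−1.19) and MEPs (−3.41, from 19.6 and 27.3 to 1.9 and 2.5 CPM) and rose in MPP4 (0.51) and CLPs (0.55), the MPP4 call being lost whichever library was left out (0.47 to 0.54) and the CLP call without young CLP replicate 1, young CLP replicate 2 or aged CLP replicate 1 (0.36 to 0.57). Irf2, a factor that can compete with IRF1, fell in HSCs, MPP1, MPP3 and MPP4 (log2 fold changes of −0.41 to −0.38). Its MPP1 call was lost whichever library was left out (−0.41 to −0.34), as were those in HSCs without young HSC replicate 1 (−0.35), in MPP3 without young MPP3 replicate 2 or aged MPP3 replicate 1 (−0.31 to −0.29) and in MPP4 without young MPP4 replicate 1 (−0.36). Of 14 regulators tested, 2 were called higher in GMPs and 4 in CLPs with none lower, and MEPs had 4 higher and 3 lower. Among all genes, the shares called higher were 9.93% in GMPs, 9.08% in MEPs and 5.71% in CLPs. Those called lower were 8.97%, 11.7% and 4.73% in the same order. The median log2 fold changes of the 14 regulators were 0.14 for GMPs, 0.20 for MEPs and 0.28 for CLPs.

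**Figure D5:**
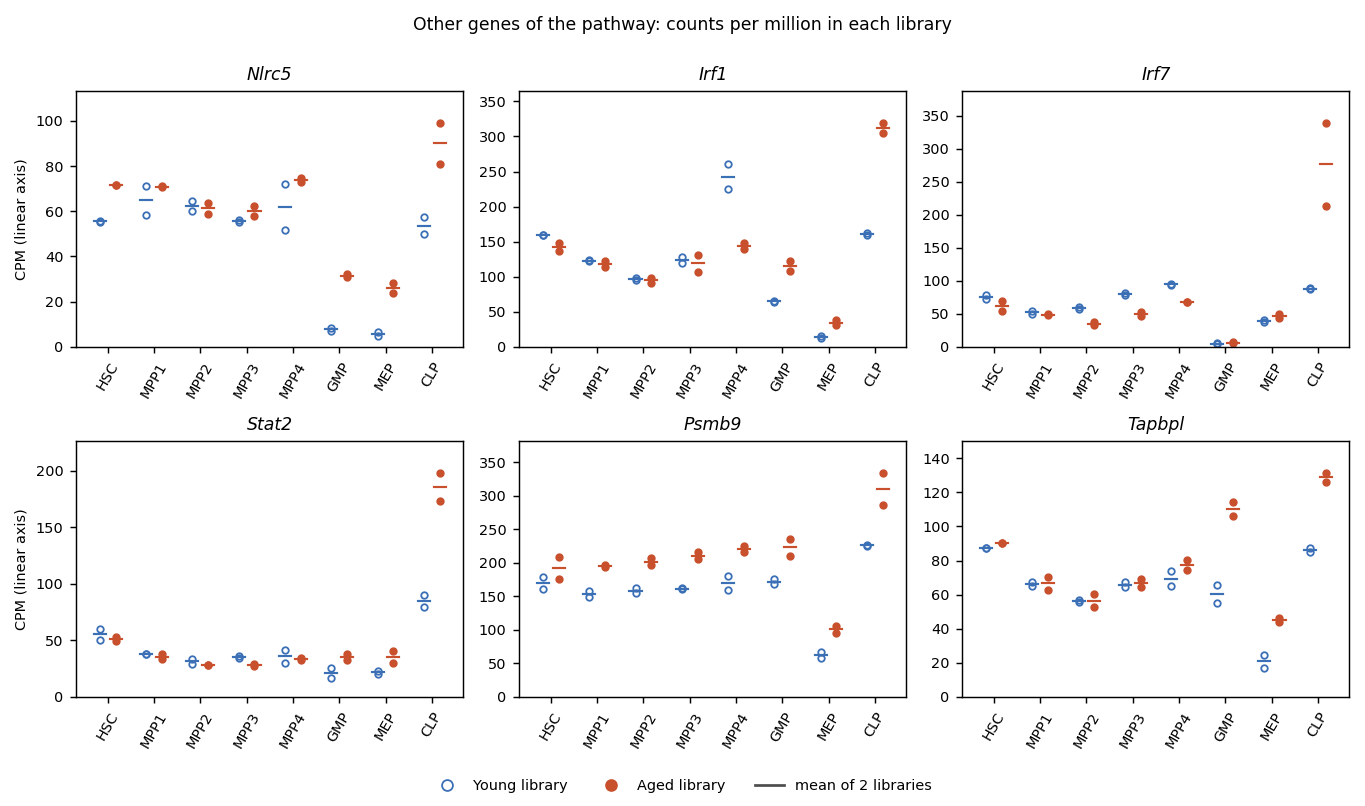
Levels (CPM, linear axes) of Nlrc5, Irf1, Irf7, Stat2, Psmb9 and Tapbpl in every library, with fractions on the x axis, ages as separate points and short lines at group means. Nlrc5 in GMPs and MEPs had the largest fold difference of the 6 genes, with 4.93 to 8.34 CPM in the young and 23.9 to 32.3 CPM in the aged.

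Among genes that carry the interferon signal, more were called in CLPs than in any other fraction. Of 13 receptors and signal transducers, 8 were called higher in aged CLPs and none lower, with a median log2 fold change of 0.60. GMPs had 3 higher (median 0.03) and MEPs 2 (median 0.12), and neither had any lower. MPP2 and MPP4 had 2 lower each and MPP3 had 1, with none higher. Of all genes, 5.71% were called higher in CLPs, 9.93% in GMPs and 9.08% in MEPs. The shares called lower were 3.31% in MPP2, 5.79% in MPP3 and 6.27% in MPP4. Stat2, which forms the type I interferon complex with IRF9, went from 90.4 and 79.2 to 198 and 173 CPM in CLPs (1.13, SE 0.16), from 23.2 and 20.7 to 29.98 and 40.5 CPM in MEPs (0.68, SE 0.17) and from 17.1 and 25.7 to 38.1 and 32.3 CPM in GMPs (0.72, SE 0.17), the MEP call being lost without young MEP replicate 1, young MEP replicate 2 or aged MEP replicate 2 (0.41 to 0.74) and the GMP call without young GMP replicate 1 or aged GMP replicate 1 (0.44 to 0.59). Irf7, which amplifies the type I interferon response and is abundant in plasmacytoid dendritic cells, rose in CLPs from 87.6 and 88.4 to 339.8 and 213 CPM (1.65, SE 0.16). In MPP2 and MPP3 Irf7 fell (−0.76 and −0.67), calls that were lost whichever library was left out (−0.84 to −0.56). In HSCs and MPP1 none of the 13 was called, 2 and 1 were higher and 3 and 3 lower at an unadjusted p under 0.05, and DESeq2 called 0 and 1.

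Among genes of the proteasome that cuts the peptides, MPP3 and MPP4 had more calls with age than the other fractions. Of 9 catalytic and activator subunits, MPP1 had 3 called higher, MPP2 5 and MPP3 and MPP4 7 each, with none lower. GMPs had 1 higher and 1 lower, MEPs 2 and 0, and CLPs 3 and 2. Among all genes, the shares called higher were 4.71%, 4.49%, 8.14% and 10.31% in MPP1 to MPP4. They were 9.93% in GMPs, 9.08% in MEPs, 5.71% in CLPs and 3.74% in HSCs. Those called lower were 2.09%, 3.31%, 5.79% and 6.27% in MPP1 to MPP4. GMPs had 8.97% lower, MEPs 11.7%, CLPs 4.73% and HSCs 1.66%. The median over the 9 was 0.28, 0.37, 0.39 and 0.42 for MPP1 to MPP4, and 0.02 for GMPs, 0.13 for MEPs and 0.16 for CLPs. HSCs had none (edgeR), with 4 higher at an unadjusted p under 0.05 and 2 by DESeq2. Psmb9, the interferon-inducible subunit encoded beside Tap1, rose in MPP3 (0.39), MPP4 (0.38), GMPs (0.38), MEPs (0.71) and CLPs (0.46), and of these only the MEP call held whichever library was left out (0.57 to 0.76). The other calls were lost without one or another of 3 of their 4 libraries (0.38 to 0.42 in MPP3, 0.29 to 0.41 in MPP4, 0.29 to 0.40 in GMPs and 0.33 to 0.45 in CLPs). Psmb5, the constitutive subunit, rose in MPP1 to MPP4 (0.40 to 0.56), and Psme2, a subunit of the PA28 activator, rose in the same fractions (0.44 to 0.58). Without young MPP1 replicate 1, Psmb5 (0.35) and Psme2 (0.41) lost their calls in MPP1, as Psmb5 did there without young MPP1 replicate 2 (0.44) and in MPP2 without young MPP2 replicate 1 (0.41).

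Genes of peptide loading and trimming had calls in every fraction, but Calr and Pdia3 had none in MEPs or CLPs. Of 11 loading and trimming genes, HSCs had 2 called higher, MPP1 3, MPP2 2, MPP3 3 and MPP4 5, with none lower. GMPs and MEPs had 2 higher and 2 lower each, and CLPs had 3 higher. Among all genes, 3.74% were called higher in HSCs and 4.71%, 4.49%, 8.14% and 10.31% in MPP1 to MPP4. The shares called higher were 9.93% in GMPs, 9.08% in MEPs and 5.71% in CLPs. Those called lower were 8.97% in GMPs and 11.7% in MEPs. The median over the 11 lay between 0.16 and 0.21 in HSCs and MPPs and was −0.07 in GMPs, −0.01 in MEPs and 0.11 in CLPs. Calr (calreticulin) rose in HSCs, MPP1 to MPP4 and GMPs by 0.19 to 0.55, with its calls lost in GMPs without young GMP replicate 1, young GMP replicate 2 or aged GMP replicate 1 (0.16 to 0.18), in HSCs without young HSC replicate 1 or aged HSC replicate 2 (0.17 to 0.20) and in MPP2 without young MPP2 replicate 1 (0.26). Pdia3 (ERp57), which binds tapasin, rose in HSCs and MPP1 to MPP4 by 0.35 to 0.39, with the HSC call lost without young HSC replicate 1, young HSC replicate 2 or aged HSC replicate 1 (0.20 to 0.34) and the MPP1 call without young MPP1 replicate 1 (0.29). Uggt1, which checks glycoprotein folding, rose in MPP1 (0.43), MPP4 (0.645) and CLPs (0.50) and fell in MEPs (−0.38), with the MPP1 call lost whichever library was left out (0.40 to 0.47), the CLP call without young CLP replicate 1 or aged CLP replicate 1 (0.40 to 0.44) and the MEP call without young MEP replicate 1, aged MEP replicate 1 or aged MEP replicate 2 (−0.44 to −0.39). Chosen after its values were seen, Tapbpl, which encodes TAPBPR, a peptide editor related to tapasin, rose with the heavy chains in GMPs (0.86, SE 0.11), MEPs (1.13, SE 0.12) and CLPs (0.58, SE 0.11), the CLP call being lost without young CLP replicate 1, young CLP replicate 2 or aged CLP replicate 1 (0.55 to 0.59).

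Markers of other cell types differed between the young and aged libraries, both in the fractions in which the members rose and in others. In CLPs, 3 of 5 tested dendritic cell markers were higher in the aged and their summed level went from 1449 to 1467 CPM in the young to 2818 to 4228 CPM in the aged. Of 7 B and plasma cell markers, 4 were lower there (2056 to 2124 CPM against 956 to 991 CPM), and all 5 neutrophil markers were lower (536 to 543 CPM against 80.6 to 145 CPM). Of 8 macrophage markers, 7 were lower and 1 higher, with the sum at 252 to 275 CPM in the young and 226 to 365 CPM in the aged, and Cd5l was at 0 in the aged. In GMPs, 3 of 5 erythroid markers were lower (170.1 to 196 CPM against 1.42 to 10.2001 CPM), as were 4 of 5 neutrophil markers (274 to 275 CPM against 87.1 to 119 CPM). One of 8 T and NK cell markers was higher in GMPs and 1 lower, the sum going from 690.5 to 736 CPM to 984 to 1057 CPM, with Cd3d, Cd3e, Cd3g and Ncr1 at 0 at both ages. In MEPs, 4 of 7 B and plasma cell markers were lower (113 to 117 CPM against 0 to 0.843 CPM) and 4 of 8 macrophage markers were lower (9.69 to 10.12 CPM against 0.375 to 1.46 CPM). The summed erythroid markers were also lower in aged MEPs (494 to 566 CPM against 203 to 213 CPM) and aged CLPs (387 to 412 CPM against 72.0 to 81.3 CPM), with 1 of 5 called in each. In HSCs all 5 neutrophil markers were higher in the aged (54.5 to 58.7 CPM against 271 to 299.8 CPM). There 2 of 8 T and NK cell markers were higher too (31.5 to 33.8 CPM against 81.8 to 91.7 CPM). In MPP3 all 5 neutrophil markers were lower in the aged (1071 to 1076 CPM against 173 to 235 CPM). There 5 of 8 macrophage and 3 of 5 erythroid markers were lower too. In MPP2 all 5 neutrophil markers (651 to 691 CPM against 249 to 255 CPM) and 3 of 5 erythroid markers were lower. MPP4 had 5 of 8 macrophage markers lower and 1 of 8 T and NK cell markers higher. Of the 8 sorting antigens, 5 were called lower and 0 higher in aged MEPs, with the sum at 372 to 458 CPM in the young and 393 to 423 CPM in the aged. Aged CLPs had 2 higher and 1 lower, and aged GMPs 1 and 1. The shares of all genes called with age, given above for the members, apply to these counts as well. The part of other cell types in the results was not tested.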

How the data were processed

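RNA sequencing counts from 32 libraries were analysed, 2 in each of 16 groups set by the sample labels. Per the study's methods and the submitters' processing notes, the authors amplified cDNA with a low-input kit that does not mark strand, sequenced single reads of 60 bases, aligned them with TopHat2 2.0.13 and Bowtie2 2.1.0 to mm10, and took raw gene counts with StringTie. The deposited table holds these counts as whole numbers per gene symbol. Reads that fit several near-identical genes can be divided among them, and PCR copies were counted as reads. The authors' own comparisons, which hold fold changes and p-values, were not used, nor were 32 columns of per-sample values scaled by the authors.

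Counts were tested with edgeR 4.0.16 (R 4.3.3, limma 3.58.1): low-count filter, trimmed mean of M-values scaling, and a quasi-likelihood fit of 16 group means over all 32 libraries (biological coefficient of variation 0.113), with 18 comparisons, each adjusted by Benjamini-Hochberg over 14154 genes and called at an adjusted p under 0.01. DESeq2 1.42.0 was an alternative. The fit was tested on simulated data. Symbols were matched to the GENCODE annotation of GRCm38 (23350 directly, 678 by an older symbol, 393 without a match). Promoter sequences came from RefSeq. By a chi-square statistic, the 2 libraries of a group were in no case copies of each other (4.59 to 19 per degree of freedom). Copies across groups were not searched for.

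The members and gene lists were chosen with earlier results of these data known. Named in the text are all 10 members, the 3 genes of each other list called in most age comparisons, the 5 genes most like the members' mean profile, and those said to be chosen after their values were seen. One gene that this rule names is not reported here.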

Additional observations from a re-analysis of the deposited data

Results flagged for a closer look

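The results below are differences in the age effect between fractions that passed a test of the difference itself (log2 fold change of aged over young libraries in 1 fraction minus the mean of MPP1 to MPP4, edgeR, adjusted p under 0.01). No explanation for them was tested. In GMPs the difference was 0.62 for H2-K1, 0.33 for H2-D1, 0.47 for H2-T23, 0.623 for H2-M3 and 0.55 for Tap2. In MEPs it was 0.556 for H2-K1, 0.41 for H2-D1, 0.571 for H2-T23, 0.84 for H2-M3, 0.44 for Tap1, 0.82 for Tap2 and 0.53 for Tapbp. In CLPs it was 0.65 for B2m, 0.80 for H2-K1, 0.474 for H2-D1, 1.17 for H2-T23, 0.78 for H2-M3, 0.409 for Tap2 and 0.72 for Tapbp. All 19 were positive, and H2-Q7 and H2-T22 had none.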

How the results depend on the processing

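Of the 24 calls of members with age, 24 were kept by DESeq2, 24 with the replicate block, 23 with DESeq2's size factors and 23 with no low-count filter (Tap1 in MPP3 lost in both), 23 with GC content and length offsets (H2-T23 in GMPs lost), 16 with only the libraries compared and 17 when calls also needed a log2 fold change of 0.5 in size (the fold limit). The cause of these changes was not tested. Young and aged duplicates with the same number did not deviate together within a fraction (r −0.0557 to 0.0704), so the numbers show no pairing across ages. Whether they pair libraries of different fractions at the same age was not examined, and the comparisons between fractions treat these libraries as independent. The replicate block moved the members called to 1 in HSCs and 1 in MPP2, raised the summed heavy chains in HSCs past the threshold (0.263, and 0.263 with GC and length offsets in addition), and changed no other count of members.

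Members called with age in HSCs were 2 by DESeq2 and 2 at an adjusted p under 0.05. In MPP1 they were 3 with only the libraries compared and 0 with the fold limit. In MPP2 they were 2 by DESeq2, 3 with GC and length offsets, with or without the block, 5 with only the libraries compared and 2 at 0.05. In MPP3 they were 0 with DESeq2's size factors, without the filter or with the fold limit, 3 with the offsets and 2 at 0.05. In MPP4 they were 2 under DESeq2, its size factors, no filter, the offsets and 0.05, and 0 with the fold limit. In CLPs they were 5 with only the libraries compared. The difference of HSCs from MPPs in the age effect had 1 call, H2-T23 higher, under DESeq2, its size factors, only the libraries compared and 0.05, and 1 call of another gene and direction, Tap1 lower, with the offsets, and that of GMPs had 3 with the offsets or the fold limit. With the fold limit, young HSCs, GMPs and CLPs had 4, 5 and 2 members called against the MPPs. Over the 8 fractions, calls of regulators were 13 with only the libraries compared and 12 with the fold limit, those of the proteasome subunits 6 with the fold limit, those of interferon signal genes 33 by DESeq2 and 34 at 0.05, and those of loading genes 40 with the offsets and 7 with the fold limit. The summed heavy chains passed in HSCs at 0.05 (0.265), in MPP1 with only the libraries compared (0.126) and in MPP2 with offsets and block (0.231), only the libraries compared (0.234) and 0.05 (0.231). The GC and length offsets, without and with the block, reversed H2-D1 (0.204 and 0.205), Tap2 (0.363 and 0.362) and Tapbp (0.640 and 0.640) in young GMPs and Tapbp in young MEPs (0.230 and 0.230), and, without it, Uggt1 in aged GMPs (−0.307). Per kilobase of the longest transcript, the levels in young HSCs were 1701 CPM for H2-K1, 1379 for H2-D1, 205 for H2-T23, 81.1 for Tap1, 77.7 for Tap2 and 222 for Tapbp.

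Leaving out 1 library at a time gave 0 to 3 members called with age in HSCs, 0 in MPP1 and MPP3 (0 to 0), 0 to 1 in MPP4, 5 to 6 in GMPs, 5 to 7 in MEPs and 6 to 8 in CLPs, 0 to 1, 3 to 5 and 3 to 7 for the differences of HSCs, GMPs and MEPs from MPPs, and 0.10 to 0.37 for the summed heavy chains in HSCs. Reads shared between class I genes limit the single H2-Q and H2-T rows, and also their sums where the reads match genes outside the sum.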
